A study of Mus musculus with 4 samples.

Results

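The genes described here are 42 genes of amino acid catabolism and the urea cycle. They were looked up by symbol in a table of polymerase density in mouse liver. The choice was by function, with earlier results of these data known, so comparisons with other genes are descriptions. All 42 were found among 20642 gene symbols, each with 1 transcript in the table. The rule for choosing a transcript was the largest mean promoter-proximal value over the 4 libraries, and since each gene had 1 transcript it chose nothing. Of the 42 genes, 41 were active, like 12705 symbols in all. An active gene was one with any promoter-proximal read and with more than 4 normalized reads per kb in the gene body on average. *Bckdhb* had no promoter-proximal read in any library and could not be tested with the others.

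PRO-seq (precision nuclear run-on sequencing) maps engaged RNA polymerases by letting them add biotin-labelled nucleotides in isolated nuclei, so it measures transcription in progress and not mRNA or enzyme. The study asked where in transcription the histone deacetylase HDAC3 acts, and compared whole livers of C57BL/6 mice on postnatal day 14. Both groups carried Cre driven by the albumin promoter, which is active in hepatocytes. WT mice had intact *Hdac3* (+/+), and *Hdac3* KO mice had 1 conditional and 1 null allele or 2 conditional alleles (F/- and F/F). Each genotype had 2 libraries, WT1 and WT2 against KO1 and KO2, each made from 20000000 nuclei pooled from several mice, so the spread between libraries is a spread between pools. Between 16628518 and 26190040 reads per library fell on genes, and 9.38 to 17.0% of the normalized reads were promoter-proximal. Hepatocyte genes lose polymerase if there are fewer hepatocytes or if each transcribes less, and these cannot be told apart in whole liver. The *Hdac3* gene itself had 665 and 648 gene body reads in WT1 and WT2 and 609 and 582 in KO1 and KO2 (log2 fold change -0.14 ± 0.13 SE, limma adjusted p = 0.413). These reads are counted over the whole gene body, so the deleted part cannot be looked at alone. They do not show the deletion, and genotype is known from the labels alone.

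The liver is the main organ that breaks down amino acids. Transaminases and dehydratases remove the amino group, the urea cycle turns the freed ammonia into urea, and the carbon skeletons enter gluconeogenesis, ketone synthesis or the citric acid cycle. In the adult liver most of these enzymes are found in hepatocytes around the portal vein, and many of their genes respond to glucocorticoids, glucagon and feeding.

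In *Hdac3* KO livers, polymerase density over the gene bodies of these genes was lower almost throughout. All read values below are normalized reads, on the scale of the deposited table. Of the 41 active genes, 38 (92.7%) fell, *Oat* rose, and *Acmsd* and *Gpt2* were not called (calls required an adjusted p under 0.05 and a log2 fold change beyond 0.6 in size). Over all active genes, 11.4% fell and 10.4% rose by the same rule. Among the 41, 27 fell by more than 1 on the log2 scale, against 5.1% of all active genes. Their median log2 fold change was -1.25, beside -0.09 over all active genes, and both KO libraries lay below both WT libraries in 39 of the 41 (95.1%), against 42.8% of all active genes. The highest adjusted p of the 38 was that of *Amt* (limma, 0.012). Scaled by median of ratios, *Agxt*, *Gpt* and *Mccc1* were not called (-0.53, -0.56 and -0.59), nor were they with edgeR and TMM scaling (-0.53, -0.54 and -0.60). Scaled to total reads, *Agxt* and *Gpt* were not called (-0.57 and -0.59). Without the filter on activity, with all 20642 symbols in the fit, 17 fell and none rose by limma (36 and 1 at an unadjusted p under 0.05). When the libraries were scaled to hepatocyte marker genes, an alternative added after the data had been seen, the median was -0.35, 12 genes fell and 2 rose, and the median of all active genes moved to 0.81.

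Summed over the 42 genes, gene body reads were 461754 and 463285 in WT1 and WT2 and 171771 and 160160 in KO1 and KO2. The libraries of each genotype lay close together, and the KO mean was 35.9% of the WT mean. These genes took 1.97 and 1.95% of all gene body reads in WT1 and WT2 and 0.780 and 0.765% in KO1 and KO2. *Cps1* and *Ass1* alone held 48.5 and 48.2% of the summed reads in the WT libraries and 42.03 and 40.07% in the KO libraries. Without this pair, the share of all gene body reads was 1.01% in both WT libraries and 0.452 and 0.459% in KO1 and KO2.

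Per length, these genes were among the more densely transcribed of the liver. Their median gene body density was 180 normalized reads per kb in WT, beside 37.7 over all active genes, and 69.5 in KO, beside 35.5. *Tat* was the densest in WT with 2535 and 3169 reads per kb in WT1 and WT2 and 1070.0 and 1048 in KO1 and KO2. *Ass1* came next with 1701 and 1912 reads per kb in WT1 and WT2 and 369 and 329 in KO1 and KO2. *Cps1* followed with 1314 and 1209.6 reads per kb in WT1 and WT2 and 507 and 450.3 in KO1 and KO2. The WT values of these 3 did not overlap, while those of *Arg1*, the next in order, overlapped those of *Cps1* (1045 and 1263). *Acmsd* was the sparsest, with 15.5 and 18.7 reads per kb in WT1 and WT2 and 13.8 and 11.4 in KO1 and KO2. *Sds* held place 7 of 42 in WT and place 29 in KO. In the plot of gene body density by library, the KO points lie left of the WT points, except for *Oat*, where they lie right, and *Gpt2*, where they overlap.

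**Figure D1:**
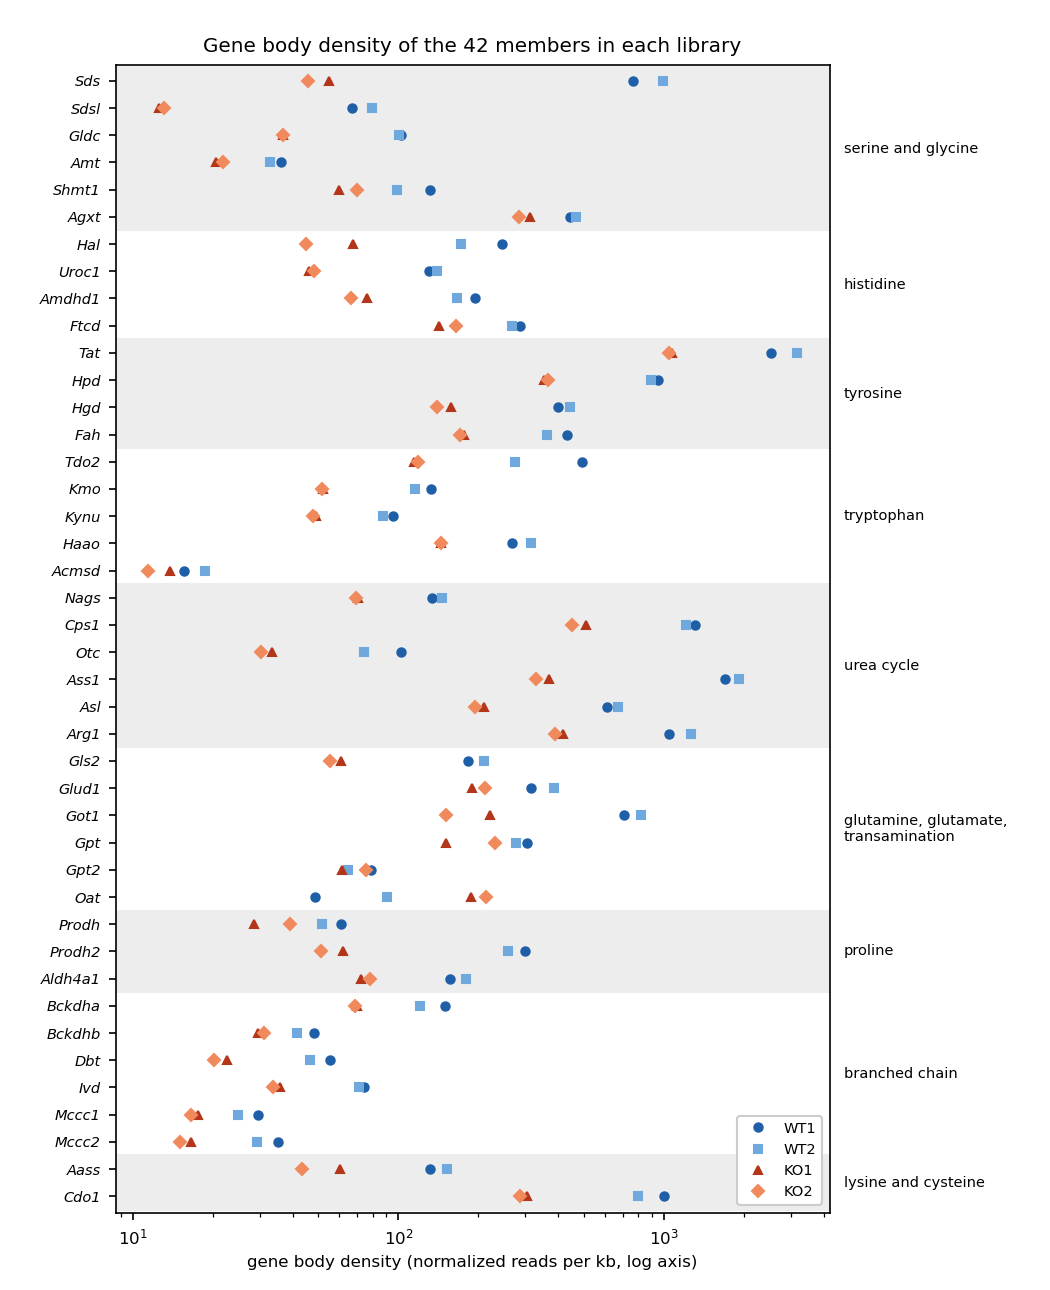
Gene body density (normalized reads per kb, log axis) of all 42 genes in WT1, WT2, KO1 and KO2, 1 point per library, grouped by pathway. Both KO libraries lie below both WT libraries except for *Oat*, where both lie above, and *Gpt2*, where they overlap; scaled to hepatocyte markers, the log2 fold changes of 11 of the 41 active genes were positive.

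Promoter sequences are shown for 5 genes: *Ass1*, *Prodh2* and *Got1* as 3 of the deepest falls, *Oat* as the gene that rose, and *Glud1*, which fell in the gene body and was not called near the promoter. Each is the 250 bases before a RefSeq start (GRCm38.p6, the assembly of mm10), written 5′ to 3′ on the gene's strand. For *Prodh2*, the window ends at 30493657, inside the gene position given below, which starts at 30493586. Capitals mark matches on either strand to CCAAT (NF-Y), GGGCGG (SP1) and TTGCNNAA (C/EBP), among 7 short motifs searched.
Ass1 (chr2:31470020-31470269, plus strand): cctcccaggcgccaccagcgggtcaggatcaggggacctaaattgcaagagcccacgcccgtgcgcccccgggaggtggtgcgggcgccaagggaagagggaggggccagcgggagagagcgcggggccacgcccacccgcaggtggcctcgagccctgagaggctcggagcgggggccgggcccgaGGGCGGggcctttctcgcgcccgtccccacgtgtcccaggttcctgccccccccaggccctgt
Prodh2 (chr7:30493408-30493657, plus strand): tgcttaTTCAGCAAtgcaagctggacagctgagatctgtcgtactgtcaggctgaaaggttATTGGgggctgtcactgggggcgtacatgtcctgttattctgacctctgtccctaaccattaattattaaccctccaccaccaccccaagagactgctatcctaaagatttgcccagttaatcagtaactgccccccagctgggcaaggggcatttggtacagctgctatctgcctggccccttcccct
Got1 (chr19:43524606-43524855, minus strand): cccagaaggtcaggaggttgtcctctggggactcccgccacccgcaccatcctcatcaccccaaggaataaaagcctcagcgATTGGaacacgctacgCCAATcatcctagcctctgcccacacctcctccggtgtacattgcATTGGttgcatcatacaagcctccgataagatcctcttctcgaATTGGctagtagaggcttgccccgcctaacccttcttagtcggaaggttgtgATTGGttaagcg
Oat (chr7:132576399-132576648, minus strand): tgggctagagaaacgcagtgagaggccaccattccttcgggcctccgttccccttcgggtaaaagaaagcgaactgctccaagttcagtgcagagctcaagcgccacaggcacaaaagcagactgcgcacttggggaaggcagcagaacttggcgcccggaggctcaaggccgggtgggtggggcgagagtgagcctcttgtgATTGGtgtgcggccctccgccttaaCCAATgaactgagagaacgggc
Glud1 (chr14:34310477-34310726, plus strand): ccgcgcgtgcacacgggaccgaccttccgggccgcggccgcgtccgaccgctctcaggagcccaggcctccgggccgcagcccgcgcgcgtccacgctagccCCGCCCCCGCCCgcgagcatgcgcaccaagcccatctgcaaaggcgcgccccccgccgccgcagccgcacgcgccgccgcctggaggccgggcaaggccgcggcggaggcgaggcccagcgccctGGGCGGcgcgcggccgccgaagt
*Got1* held 5 matches to CCAAT in either orientation and *Oat* 2, while the *Glud1* window held 3 matches to GGGCGG and the *Ass1* window 1. *Prodh2* held 1 C/EBP match and 1 CCAAT match.

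Of the 42 genes, 32 matched an entry of the RefSeq promoter table by symbol. CCAAT was found in 17 of them (53.1%), against 33.8% of all 32851 RefSeq promoters, and GGGCGG in 12 (37.5%), against 32.7%. The C/EBP motif TTGCNNAA was found in 4 (12.5%; *Aass*, *Hal*, *Hgd* and *Prodh2*), against 9.56%. TATAAA was found in 4 (12.5%), against 12.4%, and the glucocorticoid receptor half-site AGAACA in 3 (9.38%), against 16.1%. The full CREB palindrome TGACGTCA and the HNF4A motif CAAAGTCCA were in none of the 32, and in 1.55% and 0.384% of all promoters. These are letter matches in a short window and no test was made of them.

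The urea cycle makes urea from ammonia and aspartate in the mitochondria and cytosol of hepatocytes, and its summed gene body reads in KO were 30.9% of those in WT. All 6 of its genes fell in gene bodies. *Ass1* (chr2:31470270-31520670, plus strand), the argininosuccinate synthase that joins citrulline and aspartate, had the deepest fall of the pathway: its gene body reads were 84023 and 94440 in WT1 and WT2 and 18224 and 16270.1 in KO1 and KO2. Both KO values lay far below both WT values (means 5.17-fold apart, log2 fold change -2.37 ± 0.13 SE, limma adjusted p = 4.91e-12). *Cps1* (chr1:67122426-67231267, plus strand), the carbamoyl phosphate synthetase that commits ammonia to the cycle, had 139758 and 128681 gene body reads in WT1 and WT2 and 53978 and 47902 in KO1 and KO2. Its fall was 2.63-fold (log2 fold change -1.40 ± 0.15 SE, limma adjusted p = 6.16e-08), with the libraries of each genotype within 1.13-fold of each other.

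*Otc*, the X-linked ornithine transcarbamylase that follows *Cps1* in the mitochondria, had 6891 and 5014 gene body reads in WT1 and WT2 and 2268 and 2060.3 in KO1 and KO2 (log2 fold change -1.44 ± 0.13 SE, limma adjusted p = 4.35e-09). Gene body reads of 4 Y-linked genes, which depend on the share of males in a pool, summed to 5579, 2112, 3553 and 4909 in WT1, WT2, KO1 and KO2, and the part of this share in the *Otc* values was not tested. *Asl*, the lyase that releases arginine, had 7187 and 7946 in WT1 and WT2 and 2491 and 2289.6 in KO1 and KO2 (log2 fold change -1.66 ± 0.11 SE, limma adjusted p = 7.26e-11). *Arg1*, the arginase that releases urea, had 11769 and 14225 in WT1 and WT2 and 4681 and 4386 in KO1 and KO2 (log2 fold change -1.51 ± 0.11 SE, limma adjusted p = 4.54e-10). In each of these 3 genes both KO libraries were below 50% of either WT library. *Nags*, which makes the N-acetylglutamate needed by CPS1, fell by 0.997 on the log2 scale. Of the 6, *Ass1* and *Arg1* also fell in promoter-proximal regions, where *Ass1* had 358 and 586 reads in WT1 and WT2 and 106 and 150.3 in KO1 and KO2 (log2 fold change -1.85 ± 0.31 SE, limma adjusted p = 6.95e-07).

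Among serine and glycine genes, all 6 fell in gene bodies. *Sds* (chr5:120476547-120483932, plus strand), the serine dehydratase that turns serine into pyruvate and a gene induced by fasting and protein feeding, had the largest change of the 42. Its gene body reads were 4859 and 6286 in WT1 and WT2 and 349 and 290.0 in KO1 and KO2, and its promoter-proximal reads 1426 and 1276 in WT1 and WT2 and 299 and 247 in KO1 and KO2. The KO libraries were low in both regions, with means 17.4-fold apart in the gene body (log2 fold change -4.11 ± 0.13 SE, limma adjusted p = 6.18e-16). Near the promoter the means were 4.94-fold apart (log2 fold change -2.31 ± 0.29 SE, limma adjusted p = 4.36e-12). Its neighbour *Sdsl* (chr5:120458193-120472825, minus strand), serine dehydratase-like, starts on the opposite strand with 3721 bp between the gene models. *Sdsl* had 906 and 1079 gene body reads in WT1 and WT2 and 169.7 and 178 in KO1 and KO2 (log2 fold change -2.50 ± 0.15 SE, limma adjusted p = 1.35e-11), the second largest fall. Its promoter-proximal reads were under 10 in every library, and their log2 fold change was -1.12 (limma adjusted p = 0.0841).

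*Gldc*, the glycine-decarboxylating subunit of the glycine cleavage system, had 7777 and 7652 gene body reads in WT1 and WT2 and 2802 and 2797 in KO1 and KO2 (log2 fold change -1.46 ± 0.11 SE, limma adjusted p = 2.33e-10), with libraries of the same genotype nearly equal. *Amt*, the aminomethyltransferase of the same complex, *Shmt1*, the cytosolic serine hydroxymethyltransferase, and *Agxt*, the peroxisomal enzyme that uses alanine to remove glyoxylate, fell as well, with log2 fold changes of -0.70, -0.82 and -0.61. *Amt* had 133 and 121 gene body reads in WT1 and WT2 and 75.3 and 80.5 in KO1 and KO2 and was not called without WT1, KO1 or KO2 (log2 fold change -0.63, -0.65 and -0.74) or with DESeq2 (-0.71). *Agxt* was not called without WT2 (-0.57) or KO2 (-0.54), and *Amt*, *Shmt1* and *Agxt* had positive values, from 0.083 to 0.30, when scaled to hepatocyte markers.

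Histidine is broken down to glutamate by 4 enzymes in sequence, and all 4 genes fell. *Hal*, histidine ammonia-lyase and the first step, had 6633 and 4626 gene body reads in WT1 and WT2 and 1822 and 1213 in KO1 and KO2 (log2 fold change -1.90 ± 0.16 SE, limma adjusted p = 1.82e-09). Its libraries were uneven within each genotype, by 1.43-fold in WT and 1.502-fold in KO, but did not overlap between genotypes. *Uroc1*, urocanate hydratase, had 3935 and 4236 in WT1 and WT2 and 1389 and 1456 in KO1 and KO2 (log2 fold change -1.52 ± 0.11 SE, limma adjusted p = 2.24e-10). *Amdhd1*, the imidazolonepropionase of the third step, lies 6576 bp from *Hal* on the opposite strand of chromosome 10. Its reads were 3038 and 2607 in WT1 and WT2 and 1196 and 1043 in KO1 and KO2 (log2 fold change -1.33 ± 0.12 SE, limma adjusted p = 4.92e-09). *Ftcd*, which passes the one-carbon group to folate, had the smallest change of the pathway, -0.86, and 0.048 when scaled to hepatocyte markers.

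The tyrosine pathway leads to fumarate and acetoacetate. *Tat*, the glucocorticoid-induced tyrosine aminotransferase that starts it, had 21219 and 26524 gene body reads in WT1 and WT2 and 8955 and 8771 in KO1 and KO2 (log2 fold change -1.42 ± 0.12 SE, limma adjusted p = 2.58e-09). *Hpd*, the 4-hydroxyphenylpyruvate dioxygenase, had 9389.8 and 8811 in WT1 and WT2 and 3501 and 3629 in KO1 and KO2 (log2 fold change -1.35 ± 0.11 SE, limma adjusted p = 8.27e-10). The KO libraries of both genes were close to each other and far below WT. *Hgd*, homogentisate dioxygenase, had 20277 and 22557 in WT1 and WT2 and 8005 and 7116 in KO1 and KO2 (log2 fold change -1.50 ± 0.11 SE, limma adjusted p = 5.23e-10), and *Fah*, the fumarylacetoacetase of the last step, had 8517 and 7200 in WT1 and WT2 and 3491 and 3365 in KO1 and KO2 (log2 fold change -1.19 ± 0.11 SE, limma adjusted p = 1.07e-08). The 2 upstream genes also fell near the promoter, and *Hpd* was one of 3 genes, with *Tdo2* and *Kmo*, that fell in both regions with the lower value near the promoter: its promoter-proximal reads were 559 and 457 in WT1 and WT2 and 125 and 118 in KO1 and KO2 (log2 fold change -2.04 ± 0.31 SE, limma adjusted p = 2.68e-08). The *Hpd* model lies inside a noncoding RNA model on the same strand (Gm26745), whose reads cannot be told apart from those of *Hpd*.

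Tryptophan is degraded through kynurenine, and 4 of its 5 genes fell. *Tdo2*, the tryptophan dioxygenase that limits the pathway in hepatocytes, had 7996 and 4470 gene body reads in WT1 and WT2 and 1871 and 1931 in KO1 and KO2 (log2 fold change -1.65 ± 0.16 SE, limma adjusted p = 2.66e-08). WT1 was 1.79 times WT2, and both KO libraries were still below 50% of WT2. Its promoter-proximal reads were 217 and 91 in WT1 and WT2 and 27.6 and 39.5 in KO1 and KO2 (log2 fold change -2.06 ± 0.36 SE, limma adjusted p = 2.04e-06). *Kmo*, kynurenine monooxygenase, had 3658 and 3187 in WT1 and WT2 and 1437 and 1429 in KO1 and KO2 (log2 fold change -1.25 ± 0.11 SE, limma adjusted p = 5.3e-09). *Haao*, 3-hydroxyanthranilate dioxygenase, had 3856 and 4555 in WT1 and WT2 and 2091 and 2088 in KO1 and KO2 (log2 fold change -1.004 ± 0.11 SE, limma adjusted p = 1.56e-07). *Kynu*, kynureninase, fell by 0.92 on the log2 scale. *Acmsd*, the decarboxylase that diverts the pathway from NAD synthesis, had 577 and 693 gene body reads in WT1 and WT2 and 514 and 424 in KO1 and KO2, with both KO libraries below both WT libraries, and its log2 fold change of -0.44 was under the size required for a call (limma adjusted p = 0.0192).

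The genes of glutamine, glutamate and transamination did not all move one way: some fell, 1 rose and 1 was not called. *Gls2*, the liver glutaminase that releases ammonia for the urea cycle, had 2637 and 3022 gene body reads in WT1 and WT2 and 875 and 793 in KO1 and KO2 (log2 fold change -1.76 ± 0.12 SE, limma adjusted p = 9.06e-11). *Got1*, the cytosolic aspartate aminotransferase, had 16909 and 19473 in WT1 and WT2 and 5296 and 3589 in KO1 and KO2 (log2 fold change -2.06 ± 0.14 SE, limma adjusted p = 1.07e-10). KO1 was 1.48 times KO2 for *Got1*, and both were below 50% of either WT library. *Glud1*, the glutamate dehydrogenase, and *Gpt*, the cytosolic alanine aminotransferase, fell by 0.79 and 0.64 on the log2 scale; scaled to hepatocyte markers, both were positive (0.11 and 0.27). The call of *Gpt* rested on KO1 and WT1: without KO1 its log2 fold change was -0.33, and without WT1 it was -0.57, and it was not called in either case. *Gpt2*, the mitochondrial alanine aminotransferase, had 2672 and 2201 in WT1 and WT2 and 2079 and 2554 in KO1 and KO2, and its genotypes overlapped (log2 fold change -0.07 ± 0.12 SE, limma adjusted p = 0.67).

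*Oat* (chr7:132557475-132576398, minus strand), the ornithine aminotransferase that links ornithine to glutamate and proline, was the only one of the 41 tested genes called as rising, in either region; scaled to hepatocyte markers, *Gpt2* was also called in the gene body, and 9 genes besides *Oat* near the promoter. In the adult liver its protein is known from hepatocytes around the central vein, unlike the urea cycle. Its gene body reads were 867 and 1619 in WT1 and WT2 and 3353 and 3814 in KO1 and KO2 (log2 fold change 1.59 ± 0.17 SE, limma adjusted p = 1.22e-07), and its promoter-proximal reads 165 and 127 in WT1 and WT2 and 191 and 352 in KO1 and KO2 (log2 fold change 0.84 ± 0.32 SE, limma adjusted p = 0.0376). Both KO libraries were above both WT libraries in both regions, but WT2 was 1.87 times WT1 in the gene body. The promoter-proximal call was lost without WT1, without WT2, without KO2, with a replicate block, with DESeq2, with edgeR and TMM scaling (0.28), with each region scaled to its own median of ratios (0.27) and without the filter on activity, which also ended the gene body call. *Oat* lies wholly within the GENCODE M21 gene model of *Fgfr2* on the same strand. The *Fgfr2* reads were counted over a deposited gene body of 103358 bp, and whether that stretch reaches *Oat* was not tested. *Fgfr2*, a fibroblast growth factor receptor, had gene body densities of 37.2 and 40.9 reads per kb in WT1 and WT2 and 68.6 and 67.4 in KO1 and KO2 (log2 fold change 0.80 ± 0.11 SE, limma adjusted p = 2.02e-06). *Oat* had 48.4 and 90.3 reads per kb in WT1 and WT2 and 187 and 213 in KO1 and KO2, above *Fgfr2* in every library as the plot of the pair shows, and how many of the *Oat* reads came from *Fgfr2* transcription was not tested.

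**Figure D2:**
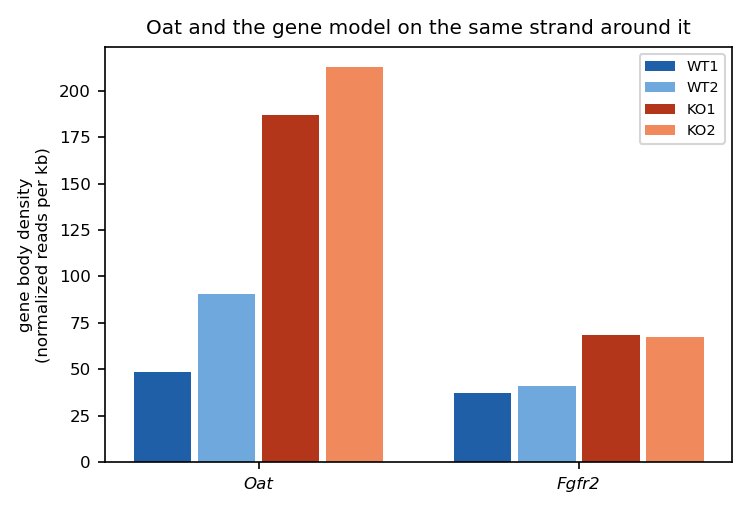
Gene body density (normalized reads per kb, bars from 0, 1 bar per library) of *Oat* and of *Fgfr2*, whose GENCODE M21 model holds *Oat* on the same strand. Whether the 103358 bp counted for *Fgfr2* reach *Oat* was not tested. Both genes were denser in KO1 and KO2 than in WT1 and WT2, by 1.59 and 0.80 on the log2 scale.

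Of the proline genes, *Prodh2* (chr7:30493586-30513402, plus strand), a hydroxyproline dehydrogenase of liver and kidney, changed most. It had 5597 and 4854 gene body reads in WT1 and WT2 and 1164 and 955 in KO1 and KO2 (log2 fold change -2.30 ± 0.12 SE, limma adjusted p = 2.86e-12), a 4.93-fold difference against 1.15-fold between the WT libraries and 1.22-fold between the KO libraries. *Aldh4a1*, the mitochondrial enzyme that completes proline and hydroxyproline breakdown, had 4021 and 4651 in WT1 and WT2 and 1865 and 2019 in KO1 and KO2 (log2 fold change -1.16 ± 0.11 SE, limma adjusted p = 1.93e-08), and overlaps the gene model Gm21969 on the same strand. *Prodh*, the proline dehydrogenase, fell by 0.74 on the log2 scale and was not called without KO1 (-0.52); scaled to hepatocyte markers its value was 0.16.

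The branched-chain genes had moderate changes, and their summed gene body reads in KO were 57.7% of those in WT. *Dbt*, the E2 core of the branched-chain ketoacid dehydrogenase, had 1991 and 1668 gene body reads in WT1 and WT2 and 809 and 727 in KO1 and KO2 (log2 fold change -1.25 ± 0.12 SE, limma adjusted p = 2.77e-08). *Ivd*, the isovaleryl-CoA dehydrogenase of leucine breakdown, had 1362 and 1308 in WT1 and WT2 and 658 and 621 in KO1 and KO2 (log2 fold change -1.06 ± 0.12 SE, limma adjusted p = 2.17e-07), and *Mccc2*, the smaller subunit of methylcrotonyl-CoA carboxylase, had 2319 and 1940 in WT1 and WT2 and 1099 and 993 in KO1 and KO2 (log2 fold change -1.02 ± 0.12 SE, limma adjusted p = 3.5e-07). In these 3 genes neither KO library reached either WT library. *Bckdha*, the E1 alpha subunit, fell by 0.95, and *Mccc1*, the larger carboxylase subunit, fell by 0.67 on the log2 scale; *Mccc1* was not called without WT1 (-0.55) and had a value of 0.23 when scaled to hepatocyte markers. *Bckdhb*, the E1 beta subunit, had 8369 and 7262 gene body reads in WT1 and WT2 and 5155 and 5434 in KO1 and KO2, all KO values being below WT, and fitted with every symbol of the table its log2 fold change was -0.56 ± 0.10 SE, limma adjusted p = 0.0848. None of the 5 tested genes was called in promoter-proximal regions by limma (0 at an unadjusted p under 0.05), edgeR with the deposited scaling or DESeq2, while 2 were called as falling by edgeR with TMM scaling, and all 5 were called as rising by limma when scaled to hepatocyte markers.

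Lysine and cysteine are represented by 1 gene each. *Aass*, which carries out the first steps of lysine breakdown, had 7836 and 9079 gene body reads in WT1 and WT2 and 3608 and 2596 in KO1 and KO2 (log2 fold change -1.46 ± 0.13 SE, limma adjusted p = 5.14e-09). *Cdo1*, the cysteine dioxygenase, had 14093 and 11293 in WT1 and WT2 and 4321 and 4072 in KO1 and KO2 (log2 fold change -1.59 ± 0.12 SE, limma adjusted p = 3.13e-10). Both genes also fell near the promoter, with log2 fold changes of -1.03 and -1.04. The plot of reads summed by pathway sets the urea cycle, with the lowest share left in KO, beside the branched-chain genes, with the highest.

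**Figure D3:**
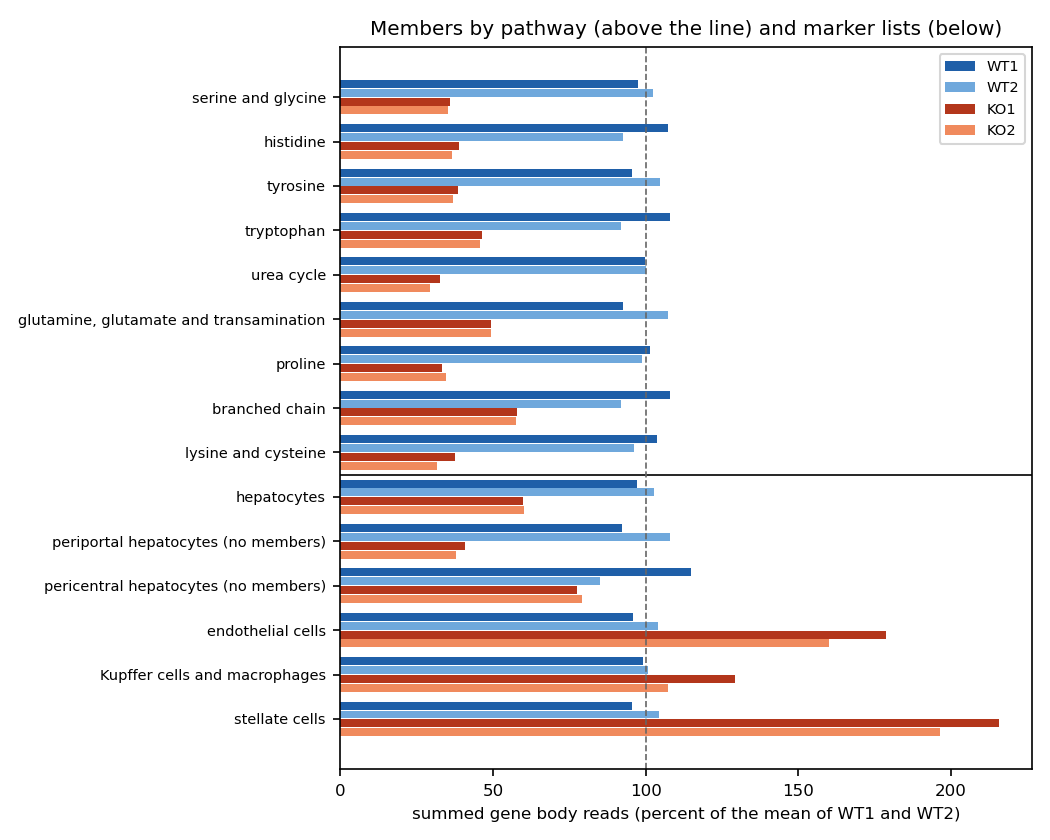
Summed gene body reads of each pathway of the 42 genes (above the line) and of marker lists for liver cell types (below), as a percent of the mean of WT1 and WT2, with 1 bar per library and bars from 0. The KO libraries lie at 29.2 to 57.7% of WT for the pathways, at 59.8 and 60.0% for hepatocyte markers, higher than each pathway, at 40.95 and 37.96% for periportal markers, within the range of the pathways, and above 100% for endothelial, Kupffer and stellate cell markers. For pericentral markers, KO1 and KO2 lie at 77.4 and 79.3%, higher than each pathway.

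The promoter-proximal value counts reads in the densest 50 bp window around the start site, where polymerase pauses before elongation. Of the 41 genes, 16 (39.0%) fell and *Oat* rose, against 2.2% of active genes that fell and 25.8% that rose. Both KO libraries lay below both WT libraries in 25 genes (61.0%), against 6.72% of all active genes. The median log2 fold change was -0.62, beside 0.56 over all active genes, which rose near promoters in general. With each region scaled to its own median of ratios, which takes that rise out, 30 of the 41 fell and none rose (36 and 0 at an unadjusted limma p under 0.05), with a median of -1.19, and over all active genes 942 fell and 634 rose, in place of 280 and 3282; with edgeR and TMM scaling 32 fell. Scaled to hepatocyte markers, their median turned to 0.29, with 5 falls and 10 rises. Leaving out 1 library left 6 falls without WT1, 6 without WT2, 8 without KO2 and 14 without KO1.

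The 16 genes that fell in both regions were *Sds*, *Gldc*, *Hal*, *Uroc1*, *Amdhd1*, *Tat*, *Hpd*, *Tdo2*, *Kmo*, *Ass1*, *Arg1*, *Gls2*, *Got1*, *Prodh2*, *Aass* and *Cdo1*. Their median log2 fold changes were -1.55 in gene bodies and -1.31 near the promoter. The other 22 fell in gene bodies, with a median of -1.001, and were not called near the promoter, where their median was -0.35 and 5 values were above 0. *Glud1* shows the second pattern: its promoter-proximal reads were 1819.7 and 2113 in WT1 and WT2 and 2076 and 2749.6 in KO1 and KO2 (log2 fold change 0.28 ± 0.27 SE, limma adjusted p = 0.406), while its gene body reads were 10503 and 12783 in WT1 and WT2 and 6331 and 7054 in KO1 and KO2. In the plot of both regions *Mccc1*, *Gpt* and *Glud1* lie highest among the genes that fell in gene bodies. The WT and KO libraries of *Glud1* overlap near the promoter and do not overlap in the gene body. The larger error near the promoter (median SE 0.32, against 0.12 in gene bodies) goes with fewer reads there, so a promoter-proximal value that was not called is not a value without change.

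**Figure D4:**
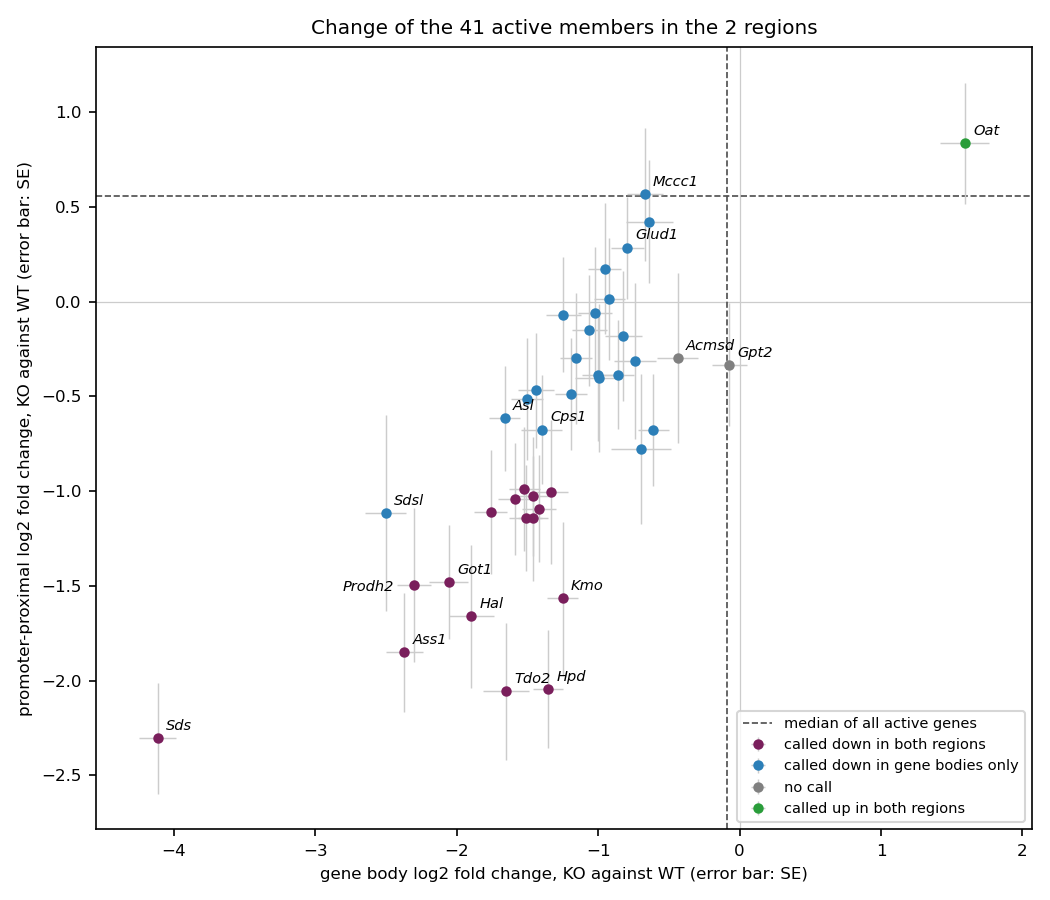
Log2 fold change (KO against WT, error bars SE) in gene bodies (horizontal) and in promoter-proximal regions (vertical), 1 point for each of the 41 active genes, with dashed lines at the medians of all active genes. *Sds* lies lowest in both regions and *Oat* highest, and 35 genes are below 0 near the promoter. Scaled to hepatocyte markers, the median of the 41 genes moves up and right by 0.91. This leaves 30 genes below 0 in gene bodies and 17 near the promoter.

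The pausing index, the promoter-proximal density divided by the gene body density, rose in 5 of the 41 genes (12.2%) and fell in none by limma. Over all active genes, 12.4% rose and 0.519% fell, so the share among these genes was that of the background. At an unadjusted limma p under 0.05, 14 of the 41 rose and 0 fell, against 4334 and 145 of 12705 active genes. The median log2 change of the 41 genes was 0.60, beside 0.61 over all active genes. The 5 genes were *Sds*, *Sdsl*, *Glud1*, *Dbt* and *Mccc1*. That of *Sdsl* rested on only 9.18 and 7 promoter-proximal reads in WT1 and WT2 and 2.12 and 4.55 in KO1 and KO2. The index of *Sds* was 37.3 and 25.8 in WT1 and WT2 and 109 and 109 in KO1 and KO2 (log2 fold change 1.81 ± 0.40 SE, limma adjusted p = 0.00114), and that of *Glud1* was 115 and 110 in WT1 and WT2 and 218 and 260 in KO1 and KO2 (log2 fold change 1.08 ± 0.38 SE, limma adjusted p = 0.0423). In *Sds* both KO values were near 109, and in *Glud1* both were above 200, against 110 and 115 in WT. These calls depended on the libraries and settings: none of the 41 was called by limma without WT1 (10 rises at an unadjusted p under 0.05), without WT2 (1 rise and 1 fall) or with each region scaled to its own median of ratios (3 rises and 6 falls), 1 (*Sds*) without KO2 or with a replicate block, and 13 genes were called without KO1.

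Markers of hepatocytes and of erythroid cells also fell in KO livers, and markers of stellate and endothelial cells rose. Of 7 hepatocyte markers found, 4 fell in gene bodies and all 7 had values below 0, with a median of -0.89. Of the 41 amino acid genes, 30 had values below that median. *Alb*, albumin, whose promoter drives Cre here, had a log2 fold change of -0.89 and *Apoa1*, an apolipoprotein, -1.76. *Ttr*, *Fgb* and *Apob* were not called in gene bodies (-0.30, -0.28 and -0.54). Summed gene body reads of the hepatocyte list were 141369 and 149350 in WT1 and WT2 and 86854 and 87205 in KO1 and KO2. All 6 stellate cell markers rose (median 1.60; summed reads 11834 to 12905 in WT and 24285 to 26699 in KO), 4 of 6 endothelial markers rose (median 0.68; 52163 to 56612 in WT and 87010 to 97214 in KO), and none of 6 Kupffer cell markers was called by limma, edgeR with the deposited scaling or DESeq2 (median 0.24; 3 above 0 at an unadjusted limma p under 0.05; 17710 to 18019 in WT and 19190 to 23117 in KO). All 6 cholangiocyte markers together had 176 to 226 summed reads in WT and 184 to 207 in KO. Of the 3 that were active, *Sox9* fell in both regions (-1.33 in the gene body and -1.12 near the promoter) and *Krt19* was called as rising near the promoter alone (1.33). Of 4 erythroid markers found, 3 fell in gene bodies and all 4 had values below 0 (median -1.61; 361 to 459 summed reads in WT and 109 to 164 in KO). The part of cell composition in the falls of the amino acid genes was not tested. Scaled to hepatocyte markers, *Sds*, *Sdsl*, *Hal*, *Uroc1*, *Tdo2*, *Ass1*, *Asl*, *Arg1*, *Gls2*, *Got1*, *Prodh2* and *Cdo1* still fell in gene bodies, *Oat* rose, and *Gpt2* was called as rising.

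Markers of the zones of the lobule, none of them among the 42 genes, also moved unequally. Of 8 periportal markers 6 fell in gene bodies, among them *Hsd17b6*, *Fbp1* and *Pck1* (-1.93, -1.59 and -1.58). Their gene body median was -1.10, while *Ctsc* had 0.45. Of 9 pericentral markers only *Lgr5* was called in gene bodies by limma (-0.90), and the gene body median was -0.27. Near the promoter, limma called 4 periportal markers as falling and *Ctsc* as rising. Of the pericentral markers only *Glul* was called there, as rising. Whether the zones differ was not tested. In the plot of the lists, the points of the amino acid genes reach further left than those of the other 9 lists, through *Sds* at -4.11.

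**Figure D5:**
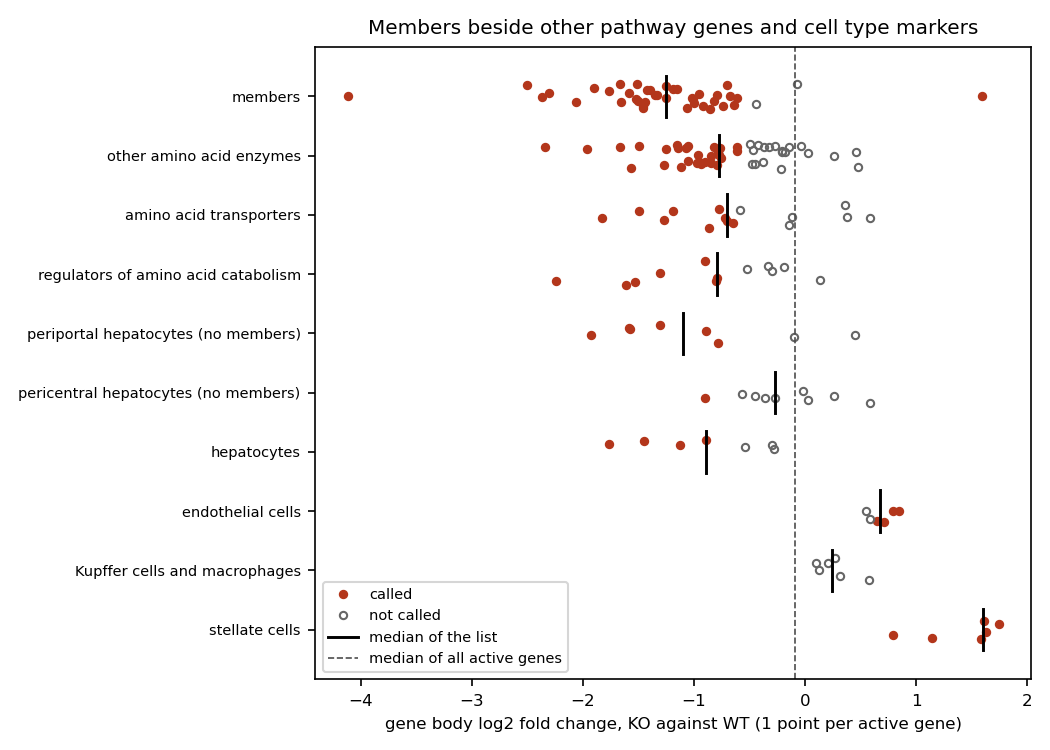
Gene body log2 fold change (KO against WT) of the 41 active genes described here and of active genes of 9 other lists, 1 point per gene, filled where called, with a bar at each list's median and a dashed line at the median of all active genes. The medians lie at -1.25 for the genes described here, -0.78 for other amino acid enzymes, -0.89 for hepatocyte markers and 1.60 for stellate cell markers. Scaled to hepatocyte markers, the median of the genes described here moves right by 0.91.

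Other genes of amino acid metabolism also fell in gene bodies, where 11.4% of all active genes fell. Of 47 other active enzymes of amino acid breakdown and synthesis, 28 fell and 19 were not called, with a median of -0.78 and a highest value of 0.48. Near the promoter, where 2.2% of all active genes fell and 25.8% rose, 5 of these 47 fell and 7 rose (median 0.23). The largest falls were those of *Hao1*, the hydroxyacid oxidase that makes glyoxylate, with -2.34 ± 0.12 (SE), and of *Aadat*, an aminoadipate aminotransferase, with -1.96 ± 0.15. Among 15 amino acid transporters, 9 fell in gene bodies and 6 were not called, with a median of -0.70, and near the promoter 4 fell and 4 rose. The mitochondrial ornithine carrier of the urea cycle, *Slc25a15*, fell by 1.83 and the aspartate-glutamate carrier *Slc25a13* fell by 1.27, while the plasma membrane carrier *Slc43a1* fell by 1.49. Of 12 regulators of these pathways, 7 fell in gene bodies, with a median of -0.79, and 3 fell near the promoter. *Ppargc1a*, a coactivator of fasting genes, had 7414 and 7199 gene body reads in WT1 and WT2 and 1770 and 1351 in KO1 and KO2 (-2.24 ± 0.12). *Klf15*, a factor that induces amino acid breakdown on fasting, fell by 1.61 and *Hnf4a*, a nuclear receptor of hepatocytes, fell by 1.53. *Nr3c1*, the glucocorticoid receptor, and *Gcgr*, the glucagon receptor, were not called (-0.30 and -0.33).

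The deposited list of 2282 intergenic enhancers, which the authors called from reads pooled over the libraries, has no value per library. A gene of the set was the closest gene of 15 enhancers. These belonged to 11 of the 41 active genes (26.8%), against 10.9% of all active genes. Within 50 kb the shares were 26.8% and 9.83%, and by interactions in the 4DGenome database 73.2% and 75.8%. The genes with a closest enhancer were *Cps1*, *Agxt*, *Arg1*, *Mccc2*, *Haao*, *Gldc*, *Ass1*, *Tdo2*, *Hpd*, *Tat* and *Otc*, and 4 of them had 2 enhancers. The longest was one of *Ass1* (chr2:31445103-31462584 in mm10), 17481 bp in length and 7686 bp from the gene. Distances are those of the deposited list, whose gene starts can differ from the gene positions given above. The nearest by that list was one of *Cps1* (chr1:67108754-67118812), at 4254 bp. Of the 15, 13 lay within 50 kb of the gene, 2 held a FANTOM5 center, and the median distance was 14489 bp. Genes with a closest enhancer had a median WT density of 455 reads per kb, against 141 for the other 30, and median gene body log2 fold changes of -1.42 and -1.17. Whether these differ was not tested.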

How the data were processed

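Nuclei of day 14 livers were profiled by PRO-seq in 2 WT and 2 *Hdac3* KO libraries. Per the labels and the methods of the study, the authors used cutadapt for trimming and Bowtie2 for alignment to mm10, dropped ribosomal and poorly mapped reads, and counted the rest on the coding strand with NRSA, near the start site and from 1 kb downstream to the end of each of 20820 transcripts. The deposited values of WT2 are these read counts. The deposited values of WT1, KO1 and KO2 are normalized signal, for which the authors scaled each count by 1.15, 1.06 and 1.52, and the densities are signal per bp. Division by the factors gave whole reads (tolerance 0.001) for 100% of 41640 values per library, so counts were recovered.

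Log2 values plus a pseudocount of 1 were compared over all active genes with limma 3.58.1 (trend, no block) and Benjamini-Hochberg adjustment, since the main values are signal; edgeR 4.0.16 and DESeq2 1.42.0, the latter used by the authors, were run on the recovered counts. Calls needed a log2 fold change of more than 0.6 in either direction at an adjusted p under 0.05. With 2 libraries against 2, an exact two-sided permutation test of a single gene cannot go below p = 0.33, so no single-gene permutation test is given, and p-values measure only the spread between these pools. Fold changes are on the log2(value + 1) scale. The procedure was also run on simulated counts with as many rises as falls, and so without the general promoter-proximal rise seen here. The genes and lists were chosen with earlier results of these data known. All 42 genes were named; per-library values are given for genes called in gene bodies with a log2 fold change beyond 1 or called in opposite directions in the 2 regions, with *Gpt2*, *Acmsd*, *Glud1*, *Amt* and *Bckdhb* added after their values were seen, and, of other lists, for *Ppargc1a*. The rule also gave the 3 largest called gene body falls of the enzyme, transporter and regulator lists, named by fold change; other named genes and markers were chosen after their values were seen. Gene positions are GENCODE M21 and RefSeq on GRCm38.p6, the assembly of mm10, and promoters are RefSeq. Same-numbered libraries did not deviate together (correlation 0.019 in gene bodies and -0.11 near promoters), so the numbers were not taken as pairs. Proliferation markers (median -0.26 in gene bodies) were also read. Python 3.11.15 with pandas 2.3.3 and matplotlib 3.10.9 was used. The position and sequence of *Cdo1*, 1 gene that the naming rule gave and 1 planned motif are not reported here.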

Additional observations from a re-analysis of the deposited data

How the results depend on the processing

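In gene bodies, 33 of the 38 falling genes remained called under each alternative other than the 2 named next, *Amt*, *Agxt*, *Gpt*, *Prodh* and *Mccc1* being the exceptions. Without the filter on activity, 17 fell and 0 rose in gene bodies, 0 and 0 were called near promoters and 0 in the pausing index by limma (36 and 1, 19 and 1, and 9 at an unadjusted p under 0.05); the cause was not tested. Scaled to hepatocyte markers, 12 fell and 2 rose in gene bodies (median -0.35) and 5 fell and 10 rose near promoters (median 0.29). This scaling raised the median by 0.91 in both regions. In gene bodies 10 genes then turned from negative to positive, *Acmsd* (0.47), not called in either case, and *Amt* (0.20), *Shmt1* (0.083), *Agxt* (0.30), *Ftcd* (0.048), *Glud1* (0.11), *Gpt* (0.27), *Gpt2* (0.83), *Prodh* (0.16) and *Mccc1* (0.23), and near promoters 18 did, of which those called after the change were *Shmt1* (0.72), *Dbt* (0.84), *Ivd* (0.75) and *Mccc2* (0.84). Scaled by median of ratios, from each region or from gene bodies, the gene body median was -1.17; from each region, 30 fell and 0 rose near promoters (median -1.19), and in the pausing index 0 rose (median -0.042; 3 rose and 6 fell at an unadjusted limma p under 0.05). With edgeR and TMM, 32 fell and 0 rose near promoters (median -1.20), and with DESeq2 0 rose there (1 at an unadjusted p under 0.05). In the pausing index, pseudocounts of 0.1 and 10 gave 3 and 14 rises.

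Leaving out 1 library in turn gave gene body medians from -1.35 to -1.21, 6 to 14 falls and 0 to 1 rises near promoters (medians -0.81 to -0.39), and 0 to 13 rises of the pausing index; the lone library of a genotype is then assumed to vary like the others. With a replicate block, which pairs libraries by a number they may only share, 38 fell and 1 rose in gene bodies, 14 fell and 0 rose near promoters, and 1 pausing index rose. With the numbers crossed, 38 fell and 1 rose in gene bodies, 19 fell and 1 rose near promoters, and 13 pausing indices rose.

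Limits are the 2 pools per genotype, the low read number near promoters, and the scaling, which fixes where 0 lies.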

Other observations

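Across the 41 active genes, the gene body and promoter-proximal log2 fold changes had a Pearson's r of 0.755 and a Spearman's rho of 0.784, beside 0.656 and 0.541 over all 12705 active genes. The gene body log2 fold change had an r of -0.459 and a rho of -0.510 with the log2 gene body density in WT, so that the denser genes of the set had the lower values. The points share the same 4 libraries and their scaling, the WT values enter both axes of the second relation, and genes are not independent replicates, so these are descriptions.

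Between single libraries, the median log2 ratio of the 41 genes in gene bodies ran from -1.36 (KO2 against WT1) to -1.14 (KO1 against WT2), and was 0.09 for WT1 against WT2 and 0.05 for KO1 against KO2. Near promoters it ran from -0.98 (KO1 against WT1) to -0.29 (KO2 against WT2), with 0.33 for WT1 against WT2 and -0.39 for KO1 against KO2. Over all active genes the promoter-proximal medians were 0.34 for KO1 against WT1, 0.79 for KO2 against WT2, 0.10 for WT1 against WT2 and -0.36 for KO1 against KO2, so the distance between the KO libraries was close to that of all active genes.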
